A study of Mus musculus with 22 samples.

Results

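Genes of radial glia and astrocytes were followed through the differentiation of mouse embryonic stem (ES) cells: Fabp7, Slc1a3, Ptprz1, Slc1a2, Gfap, Aqp4, S100b and Gja1. They were chosen by name as 8 of the 19721 genes listed in at least 1 of the 22 deposited RNA-seq tables, and a gene that a library's table did not list counts as 0 there. The cells were the J1 mouse ES line, grown as embryoid bodies, aggregates whose cells differentiate into ectoderm, mesoderm and endoderm. Exposed embryoid bodies received the flame retardant tetrabromobisphenol A (TBBPA), a brominated bisphenol, at 10 nM (1 library a day) or 100 nM (1 library a day), on days 4, 9, 12, 18 and 28 (D4 to D28). They were set against embryoid bodies of the same day with the vehicle, 0.1% dimethyl sulfoxide (DMSO), in 2 libraries a day, and the time course began with 2 libraries of untreated J1 ES cells. All groups come from the single ES line, and each embryoid body library holds whole aggregates of mixed cell types. No label ties the libraries of a group to separate cultures, so p-values measure only the spread between libraries, which may be technical. The step from ES cells to D4 also brings in the vehicle. The DMSO content of the TBBPA libraries is not stated in the labels.

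Radial glia are the neural stem cells of the embryonic brain and spinal cord. They produce neurons first and glia later, and in culture as in the embryo astrocyte genes appear after neurons. Fabp7 and the glutamate transporter Slc1a3 are known from radial glia, whereas Gfap and Aqp4 are known from maturing astrocytes. Several of these genes are also used outside the brain: Gja1 in heart muscle and many epithelia, Aqp4 in kidney, lung and stomach, and S100b in Schwann cells and cartilage.

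The 22 libraries held 18158583 to 18998141 estimated counts each and listed 16427 to 17816 genes. The source field of the ES libraries also reads embryoid body, but all 4 ES cell markers measured, Pou5f1, Nanog, Esrrb and Zfp42, fell at D4 against them. The ES libraries differed from each other, with a mean chi-square of 21.2 per gene, against 1.61 to 3.25 for the DMSO pairs, and the pair of TBBPA doses at one day differed by 3.14 to 7.66. Levels are CPM, counts relative to the TMM-scaled size of each library, and comparisons of levels between genes use FPKM, which divides by length. A gene rose, fell or passed where its adjusted p was under 0.05 in edgeR's quasi-likelihood test over all genes tested, and log2 changes carry their SE. S100b was too low to be tested, so 7 of the 8 genes were. In whole aggregates, fewer cells of a type and less RNA per cell cannot be told apart.

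The 8 genes did not switch on together in the DMSO time course. Gja1 was high from D4, Fabp7, Slc1a2 and Ptprz1 climbed between D9 and D18, Slc1a3 climbed to D28, and Gfap and Aqp4 stayed near 0 until D18 and were abundant only at D28. TBBPA embryoid bodies had more Fabp7 at D12, D18 and D28, more Slc1a2 at D9, D12 and D18 and more Ptprz1 at D12 and D18 than DMSO embryoid bodies. No member was called lower with TBBPA at any day in the reported fit, while Gja1 was lower at D12 in a fit of the compared libraries alone (log2 change -0.17, edgeR adjusted p = 0.0184).

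**Figure D1:**
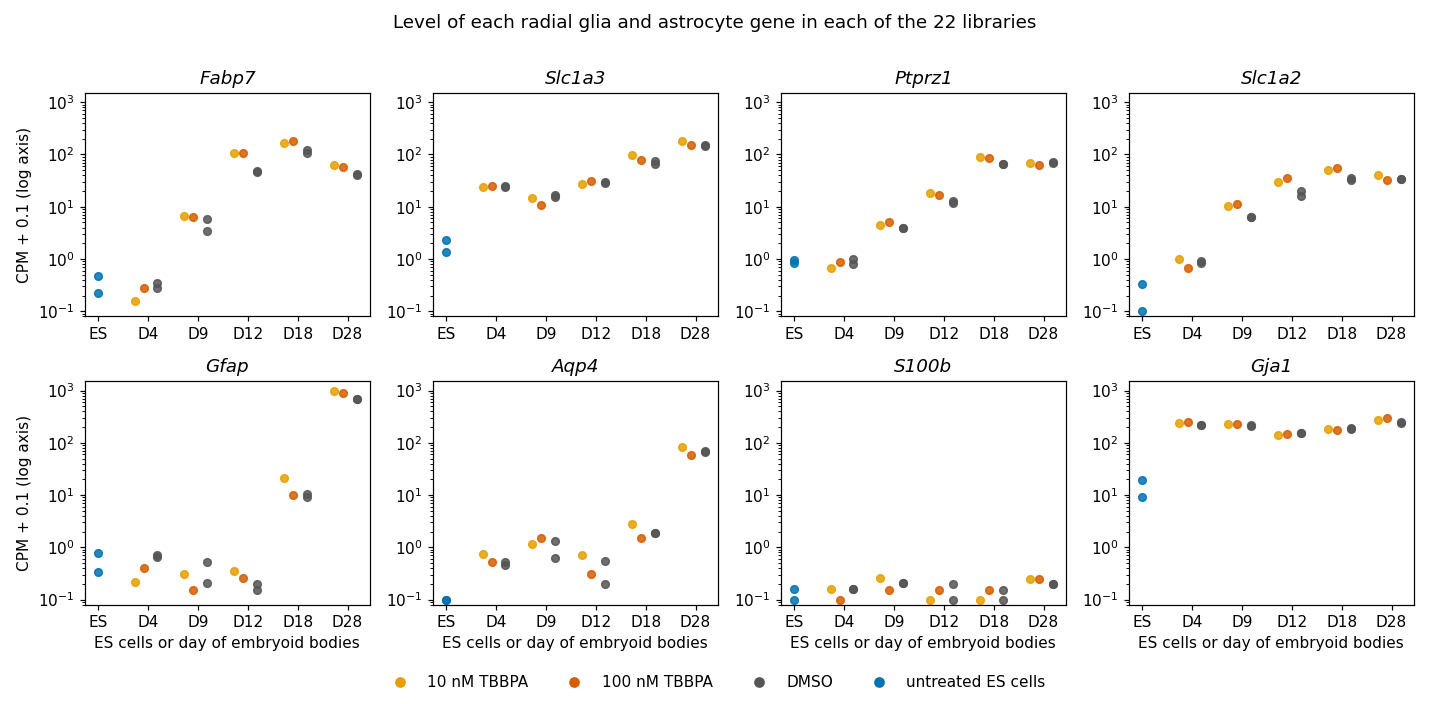
Level of each of the 8 genes in each of the 22 libraries, as CPM with 0.1 added on a log axis, against untreated ES cells and day of embryoid bodies; each point is 1 library, coloured by 10 nM TBBPA, 100 nM TBBPA, DMSO or ES. Gfap reaches 693 to 980 CPM at D28, whereas S100b stays at or below 0.161 CPM throughout.

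Fabp7 encodes a brain fatty acid binding protein of radial glia. It had 0.368 and 0.122 CPM in ES cells, and DMSO embryoid bodies had 0.241 and 0.18 CPM at D4, 3.34 and 5.68 CPM at D9, 47.1 and 48.1 CPM at D12, 122 and 108 CPM at D18, and 42.9 and 40.6 CPM at D28. The levels at D4 rest on few reads, the climb ran through D9, D12 and D18, and the D28 libraries lay below those of D18 without overlap. Fabp7 rose at D9 (log2 change over D4 4.38 ± 0.43, edgeR adjusted p = 1.49e-06), at D12 (over D9 3.41 ± 0.16, adjusted p = 1.57e-08) and at D18 (over D12 1.28 ± 0.12, adjusted p = 2.1e-06). It fell at D28, by 1.46 on the log2 scale (SE 0.12, edgeR adjusted p = 3.62e-07), which is 2.75-fold lower than at D18. Fabp7 and Slc1a2 were the tested members whose highest control mean lay at D18.

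The bases upstream of the start sites are shown for Fabp7, Gfap and Gja1, whose time courses are unlike each other. The 250 bases before the start of Fabp7 (chr10:57784673-57784922, plus strand, mouse GRCm38.p6, RefSeq) are printed 5′ to 3′, with capitals for a match to TGGGAA, the core letters of the RBPJ motif of Notch signalling, which lies on the opposite strand:
Fabp7 promoter: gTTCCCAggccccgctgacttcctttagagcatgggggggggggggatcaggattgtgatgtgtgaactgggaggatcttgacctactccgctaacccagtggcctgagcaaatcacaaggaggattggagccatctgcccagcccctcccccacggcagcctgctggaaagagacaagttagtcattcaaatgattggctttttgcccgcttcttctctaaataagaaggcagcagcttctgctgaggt
The match lies 249 to 244 bases before the start site, at the far edge of this window. TGGGAA occurred on either strand in 21.6% of 32817 promoters of the same length, so a match is a description and no evidence of a site.

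Slc1a3 encodes the glutamate transporter GLAST, which radial glia and astrocytes use to clear glutamate. Its control levels were 2.21 and 1.28 CPM in ES cells, 24.2 and 24.4 CPM at D4, 15.1 and 16.5 CPM at D9, 29 and 28.7 CPM at D12, 67 and 73.3 CPM at D18, and 148 and 152 CPM at D28. The D4 libraries stood above both ES and D9 libraries, and from D12 onward each day's pair lay above that of the day before. The change from ES cells was 3.80 ± 0.15 on the log2 scale (edgeR adjusted p = 4.34e-11), and D9 was lower than D4 by a log2 change of -0.62 ± 0.10 (adjusted p = 1e-04). Rises followed at D12 (0.88 ± 0.10, edgeR adjusted p = 1.59e-05), D18 (1.29 ± 0.09, 6.03e-08) and D28 (1.09 ± 0.08, 8.03e-08), each against the day before. No other tested member rose at each of these last 3 steps.

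Slc1a2 encodes GLT-1, the main glutamate transporter of mature astrocytes. It had 0.227 and 0 CPM in ES cells, 0.724 and 0.834 CPM at D4, 6.31 and 6.14 CPM at D9, 16.2 and 19.7 CPM at D12, 35.8 and 32.7 CPM at D18, and 33.5 and 34.1 CPM at D28 in DMSO. The level climbed to D18 and the D18 and D28 pairs overlapped. Slc1a2 rose at D9 (2.98 ± 0.27, edgeR adjusted p = 3.46e-07), D12 (1.54 ± 0.16, 7.92e-06) and D18 (0.94 ± 0.13, 8.15e-05). The step from ES cells also passed (adjusted p = 0.00267) but rests on 3.71 estimated counts in 1 ES library and 0 in the other. At D28 the change over D18 was -0.02 and did not pass.

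Ptprz1 encodes a receptor tyrosine phosphatase of radial glia, astrocytes and oligodendrocyte precursors. Its levels were 0.862 and 0.743 CPM in ES cells, 0.901 and 0.706 CPM at D4, 3.88 and 3.79 CPM at D9, 11.6 and 12.5 CPM at D12, 64.6 and 64.3 CPM at D18, and 67.5 and 71.1 CPM at D28 in DMSO. The largest single step was at D18, where no library overlapped those of D12. That step measured 2.43 ± 0.08 (edgeR adjusted p = 1.04e-10), after rises of 2.23 ± 0.19 at D9 (2.32e-07) and 1.66 ± 0.11 at D12 (1.77e-07). The D28 libraries lay above the D18 libraries by 0.10, which did not pass, although it did in a fit of the compared libraries alone (0.13, edgeR adjusted p = 0.0214).

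Gfap encodes glial fibrillary acidic protein, the intermediate filament by which astrocytes are usually recognised. Up to D12 it was barely detected, with 0.674 and 0.243 CPM in ES cells, 0.542 and 0.602 CPM at D4, 0.431 and 0.107 CPM at D9, and 0.102 and 0.0512 CPM at D12 in DMSO. It then had 9.27 and 10.5 CPM at D18 and 693 and 699 CPM at D28. Both D28 libraries stood far above every earlier one, and the D12 pair together held only 3 counts. Set against those 3 counts, the 397 counts of the D18 pair give a ratio of 129, with an exact 95% counting interval of 43.9 to 630, and the rise passed (edgeR adjusted p = 2.85e-09). At D28 Gfap was 70.1-fold higher than at D18 (log2 change 6.13 ± 0.11, edgeR adjusted p = 1.81e-13). At D28 Gfap ranked 196 and 195 by FPKM among the genes listed in the DMSO libraries.

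The Gfap promoter window is printed because the gene made the largest change of the set. It covers the 250 bases before the start (chr11:102897201-102897450, minus strand, GRCm38.p6, RefSeq), read 5′ to 3′ along the gene, with capitals for its match to TGGGAA on the opposite strand:
Gfap promoter: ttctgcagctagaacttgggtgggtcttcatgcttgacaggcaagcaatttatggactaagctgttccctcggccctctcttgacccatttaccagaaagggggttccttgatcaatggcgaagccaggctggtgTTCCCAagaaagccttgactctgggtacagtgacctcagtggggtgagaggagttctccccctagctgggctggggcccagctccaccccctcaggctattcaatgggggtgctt
That match lies 115 to 110 bases before the start site. The letters TTCNNNGAA, a STAT motif sought because STAT factors are known to drive Gfap in astrocytes, did not occur in this window on either strand, and they occurred in 7.0% of all windows searched. Bases further upstream of Gfap were not searched. The windows of Fabp7, Gfap and S100b held TGGGAA, and among the 7 members with a promoter entry that of Slc1a3 held the STAT letters.

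Aqp4 encodes the water channel of astrocyte end feet around blood vessels. It was listed in neither ES library, and DMSO embryoid bodies had 0.361 and 0.421 CPM at D4, 1.24 and 0.536 CPM at D9, 0.458 and 0.102 CPM at D12, 1.8 and 1.79 CPM at D18, and 66.9 and 70.8 CPM at D28. It remained under 2 CPM to D18, and both D28 libraries lay far above that. Aqp4 rose at D18 (log2 change 2.66 ± 0.45, edgeR adjusted p = 0.000479) and at D28 (5.25 ± 0.21, adjusted p = 1.03e-09), when it was 38.1-fold higher than at D18. Its early changes rest on few counts. The D4 mean of 0.391 CPM, from 6 and 7 counts, was 2.14-fold higher than a floor of 3 counts in each ES library. The edgeR test of D4 against ES cells, which does not use this floor, passed (adjusted p = 0.00519). The lower level at D12 than at D9 (log2 change -1.62 ± 0.53, edgeR adjusted p = 0.0325) did not pass without D9 DMSO library 1 (adjusted p = 0.341) or without D12 DMSO library 2 (0.231). Of 4 genes of kidney, lung and stomach epithelia, other users of Aqp4, the summed level at D28 was 0.35 to 0.455 CPM in DMSO, and Umod was at 0.

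S100b encodes a calcium binding protein commonly used as an astrocyte marker. It was listed in 16 of 22 libraries with at most 3 counts in any, and had 27 counts in all libraries together. Its highest level in any library was 0.1 FPKM, against lowest levels of 0.26 FPKM for Slc1a3 and 2.59 FPKM for Gja1. The remaining members also had libraries below 0.1 FPKM, but at D28 each had at least 3.1 FPKM in every library. A change in S100b was not detectable at this depth.

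Gja1 encodes connexin 43, the gap junction channel that couples radial glia and astrocytes and also heart muscle and many other cells. It had 19 and 9.24 CPM in ES cells, 217 and 216 CPM at D4, 219 and 212 CPM at D9, 156 and 157 CPM at D12, 180 and 192 CPM at D18, and 249 and 242 CPM at D28 in DMSO. The ES libraries differed from each other far more than those of any later pair. Gja1 rose at D4 (log2 change 3.94 ± 0.21, edgeR adjusted p = 2.52e-07). Later changes of -0.44 at D12, 0.25 at D18 and 0.40 at D28 did not pass with the ES pair in the fit. Without the ES libraries all of them passed (edgeR adjusted p = 3.44e-13, 1.38e-06 and 1.89e-12).

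The window before Gja1 is given as the counterpart from a gene that was already high at D4. It is chr10:56377050-56377299 (plus strand, GRCm38.p6, RefSeq), with capitals for its match to TGANTCA, an AP-1 motif that 6.8% of windows held:
Gja1 promoter: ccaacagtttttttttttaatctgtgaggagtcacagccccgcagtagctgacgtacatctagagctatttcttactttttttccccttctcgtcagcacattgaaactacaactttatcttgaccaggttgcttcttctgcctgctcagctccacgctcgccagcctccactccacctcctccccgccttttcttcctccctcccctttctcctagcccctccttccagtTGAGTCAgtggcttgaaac
This match lies 19 to 13 bases before the start site and was the only AP-1 match among the 7 members with a promoter entry. Both strands were searched for 9 motifs. The full NFI palindrome and the SOX letters ACAAAG and ACAATG matched in none of the 7, SP1 letters (GGGCGG) matched in Ptprz1 and Slc1a3, TATAAA in Slc1a3, and TTGGCA, one arm of the NFI palindrome, in S100b.

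**Figure D2:**
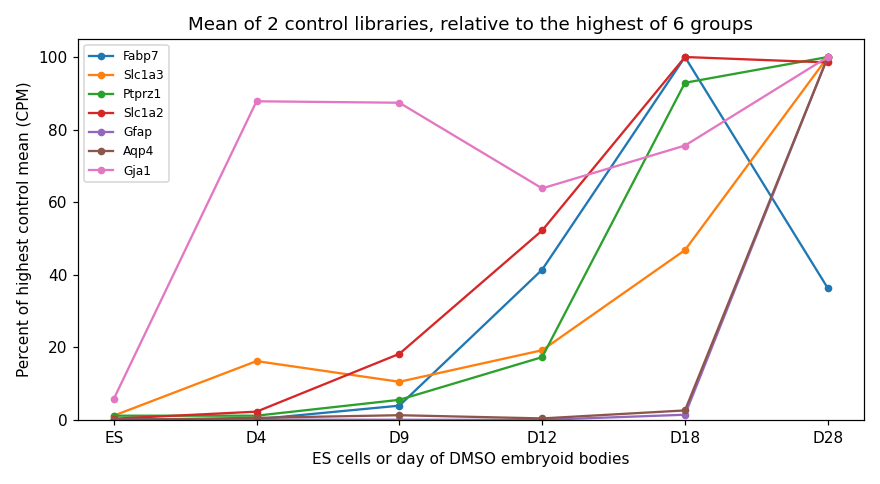
Mean CPM of the 2 control libraries of each group as a percentage of the highest of the 6 control means, for the 7 tested genes; the x axis runs from ES cells to D28. Gja1 is at 87.8% by D4 and Slc1a2 at 52.2% by D12, whereas Gfap is at 1.42% and Aqp4 at 2.61% at D18.

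The order of the members by FPKM, a level per length, changed with time in the control libraries. At D4 Gja1 had 62.2 ± 0.021 FPKM and Slc1a3 had 5.13 ± 0.049 FPKM (SD, n = 2 libraries), and every other member was at or below 0.255 FPKM. At D12 Fabp7 led with 67.3 ± 0.97 FPKM, above Gja1 with 52.4 ± 0.24 FPKM, and at D18 it had 167 ± 14 FPKM against 64.1 ± 2.9 FPKM for Gja1. At D28 Gfap led with 278 ± 0.69 FPKM, followed by Gja1 (86.1 ± 2.6), Fabp7 (62 ± 2.9), Slc1a3 (38.7 ± 0.25), Aqp4 (14.4 ± 0.45), Ptprz1 (10.7 ± 0.21), Slc1a2 (3.45 ± 0.0071) and S100b (0.07). Neighbours in the D28 order differed by more than their spread. At D18 Gfap (3.88 ± 0.34 FPKM) and Slc1a2 (3.46 ± 0.24 FPKM) did not differ beyond their spread.

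Many genes changed at each control step, and the members are read against that. At D4 against ES cells 4 of the 7 tested members rose and 0 fell, while 31.9% of all genes tested were called higher and 30.3% lower. The same number of members passed with either ES library left out. The members' median log2 change was 2.61, or 1.09 with Aqp4 set against the floor of 3 counts in ES cells, against 0 over all genes. At D9, 3 rose and Slc1a3 fell, beside 31.9% of all genes higher and 28.9% lower. At D12, 4 rose and Aqp4 fell, beside 17.5% higher and 15.6% lower. At D18, 6 of 7 rose and 0 fell, where 20.7% of all genes were called higher and 17.1% lower, with a median of 1.29 against 0 over all genes. At D28, 3 rose and Fabp7 fell, beside 24.9% of all genes higher and 28.1% lower, with a median of 0.40 against -0.03.

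**Figure D3:**
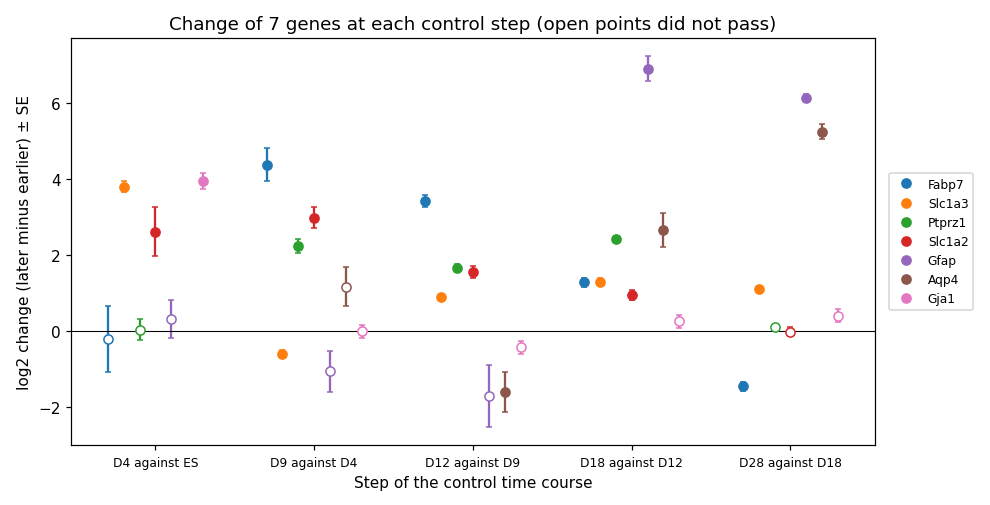
Log2 change of the 7 tested genes at each control step (later minus earlier, with SE bars), n = 2 libraries in each group; filled points passed the edgeR test and open points did not, and Aqp4 against ES cells is left out because both ES libraries are at 0. Gfap is at 6.90 at D18 and 6.13 at D28, and Fabp7 is at -1.46 at D28.

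Genes outside the set showed how far other glial and neuronal genes moved at the same steps. Of 21 tested astrocyte genes beyond the members, 13 rose and 2 fell at D18, and 20 rose and 0 fell at D28 with a median log2 change of 1.15. Mlc1, a membrane protein of astrocyte end feet, rose by 2.87 ± 0.25 at D18 (edgeR adjusted p = 8.9e-07) and 4.48 ± 0.13 at D28 (2.03e-11). Sparcl1, a secreted astrocyte protein, rose by 2.44 ± 0.07 at D18 (1.7e-11) and 2.38 ± 0.06 at D28 (2.95e-12). Apoe, a lipid carrier that macrophages and yolk sac also make, fell at D18 (-1.40 ± 0.17, 0.000222) and rose at D28 (1.15 ± 0.17, 0.000427).

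Of 12 regulators known from the start of gliogenesis, 9 rose and 0 fell at D18, and 9 rose and 1 fell at D28. Nuclear factor I genes, which open the gliogenic period in the spinal cord, were among them. Nfix rose by 3.96 ± 0.15 (edgeR adjusted p = 3.19e-10), Nfib by 2.87 ± 0.11 (2.31e-10) and Nfia by 1.68 ± 0.10 (2.2e-08) at D18 against D12. At D28 Nfix rose by a further 1.36 ± 0.11 (1.32e-07).

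Radial glia and neural stem cell genes beyond the members went the other way at D28, when 8 of 13 fell and 1 rose. Pax6, a transcription factor of neural progenitors, fell (-0.98 ± 0.11, edgeR adjusted p = 7.09e-06), and so did the proliferation marker Mki67 (-1.55 ± 0.06, 2.78e-10). Hopx, known from outer radial glia and astrocytes, was the gene that rose (1.37 ± 0.10, 6.19e-08). All 10 neuronal genes rose at D12 and at D18 and fell at D28, when their median change was -2.2. The neuronal genes summed to 384 to 402 CPM at D12, 921 to 948 CPM at D18 and 169 to 178 CPM at D28 in DMSO libraries.

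With TBBPA, the 2 doses of a day were taken as 2 samples against the DMSO pair. Of the 7 tested members, 0 were called at D4, 1 at D9, 3 at D12, 3 at D18 and 1 at D28, and every call was higher. Over all genes, 0.0855% were called higher and 0.372% lower at D4, 1.37% higher and 0.964% lower at D9, 11.9% higher and 9.19% lower at D12, 5.96% higher and 4.56% lower at D18, and 3.65% higher and 3.44% lower at D28. The members' median log2 change was 0.56 at D12 and 0.43 at D18, against 0.03 and 0.02 over all genes. At D4, 0 members had an unadjusted p under 0.05, and the DESeq2 and limma fits also called 0. With each day's DMSO libraries added up to a single sample, the members called were 0 at D9, 3 at D12, 1 at D18 and 0 at D28.

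Fabp7 had the largest called difference of the set. At D12 it had 107 CPM with 10 nM and 108 CPM with 100 nM TBBPA, against 47.1 and 48.1 CPM in DMSO, and both TBBPA libraries stood well clear of the DMSO pair. The log2 change was 1.17 ± 0.10, or 2.25-fold (edgeR adjusted p = 8.4e-08). At D18 it had 164 and 179 CPM with TBBPA, against 122 and 108 CPM in DMSO (0.58 ± 0.09, adjusted p = 0.000265). At D28 it had 63.3 and 58.7 CPM with TBBPA, against 42.9 and 40.6 CPM in DMSO (0.55 ± 0.10, adjusted p = 0.00242), a call that was lost without D28 DMSO library 2 (adjusted p = 0.057). The groups did not overlap at D9 either, with 6.6 and 6.28 CPM against 3.34 and 5.68 CPM in DMSO, but that difference did not pass (adjusted p = 0.165) unless D9 DMSO library 2 was left out (0.0227). Both doses lay above both DMSO libraries at every day from D9 to D28. The share of all genes whose groups lie apart in this way was not computed, so non-overlap of any member is only a description.

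Slc1a2 had 10.3 and 11.1 CPM at D9 with 10 nM and 100 nM TBBPA, against 6.31 and 6.14 CPM in DMSO. At D12 it had 29.4 and 34.8 CPM with TBBPA, against 16.2 and 19.7 CPM in DMSO, and at D18 49.6 and 55.1 CPM with TBBPA, against 35.8 and 32.7 CPM in DMSO. The groups were apart on these 3 days and overlapped at D28, with 40.3 and 32.1 CPM against 33.5 and 34.1 CPM. The log2 changes were 0.78 ± 0.17 at D9 (edgeR adjusted p = 0.0139), 0.84 ± 0.13 at D12 (0.000106), 0.61 ± 0.12 at D18 (0.00211) and 0.10 ± 0.13 at D28 (0.715). The D9 call was lost without either DMSO library (adjusted p = 0.135 and 0.157) and without the 100 nM library (0.113), and the D18 call without D18 DMSO library 2 (0.0544).

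Ptprz1 had 18.4 and 16.7 CPM at D12 with 10 nM and 100 nM TBBPA, against 11.6 and 12.5 CPM in DMSO. At D18 it had 87.4 and 86.7 CPM with TBBPA, against 64.6 and 64.3 CPM in DMSO. No TBBPA library overlapped the DMSO pair on these days, whereas at D28 the groups overlapped with 70.1 and 62.1 CPM against 67.5 and 71.1 CPM. Ptprz1 rose by 0.55 ± 0.09 at D12 (edgeR adjusted p = 0.000275) and 0.43 ± 0.07 at D18 (0.000471), and the D28 change was -0.07 ± 0.07 (0.67). With limma on log2(FPKM + 0.1) both calls were lost (adjusted p = 0.0736 at D12 and 0.118 at D18). The D18 call was also lost with the DMSO pair added up to a single sample (log2 change 0.43).

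Gfap did not pass at any single day. At D28 it had 980 and 916 CPM with 10 nM and 100 nM TBBPA, against 693 and 699 CPM in DMSO, so the groups did not overlap, and the log2 change was 0.45 ± 0.16 (edgeR adjusted p = 0.129). In a fit of the compared libraries alone this difference passed (adjusted p = 0.0028). At D18 the libraries of the doses lay apart, with 20.9 CPM at 10 nM and 9.92 CPM at 100 nM, against 9.27 and 10.5 CPM in DMSO. Only the 10 nM library lay outside the DMSO pair, and the D18 change was 0.64 ± 0.25 (adjusted p = 0.142). Without the 100 nM library it was 1.08 (adjusted p = 7.7e-05), which sets the 10 nM library alone against DMSO and assumes that it varies like the other groups.

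Slc1a3, Aqp4 and Gja1 did not pass at any day in the reported fit. Slc1a3 came nearest, at D18, with 99.5 and 79 CPM with 10 nM and 100 nM TBBPA, against 67 and 73.3 CPM in DMSO (log2 change 0.35 ± 0.11, edgeR adjusted p = 0.0603), and with the 10 nM library left alone in its arm, its spread taken from the other groups, the change was 0.51 (adjusted p = 0.016). Aqp4 at D28 had 82.6 and 58.9 CPM with TBBPA, which enclosed the 66.9 and 70.8 CPM in DMSO. Gja1 at D28 had 273 and 292 CPM with TBBPA, against 249 and 242 CPM in DMSO (0.20 ± 0.13, adjusted p = 0.418). At D12 Gja1 averaged 143 CPM with TBBPA, against 157 CPM in DMSO (-0.13 ± 0.13, adjusted p = 0.524). The D9 and D12 changes were -0.30 and 0.02 for Slc1a3, and 0.49 and 0.56 for Aqp4 at levels near 1 CPM or below, and the D9 change of Gja1 was 0.09. The groups of Slc1a3 did not overlap at D18, with TBBPA higher, or at D9, with TBBPA lower. At D9 Slc1a3 had 14.9 and 10.8 CPM with TBBPA, against 15.1 and 16.5 CPM in DMSO. Those of Gja1 did not overlap at D4, D9, D12 and D28, with TBBPA lower at D12 and higher on the other days.

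**Figure D4:**
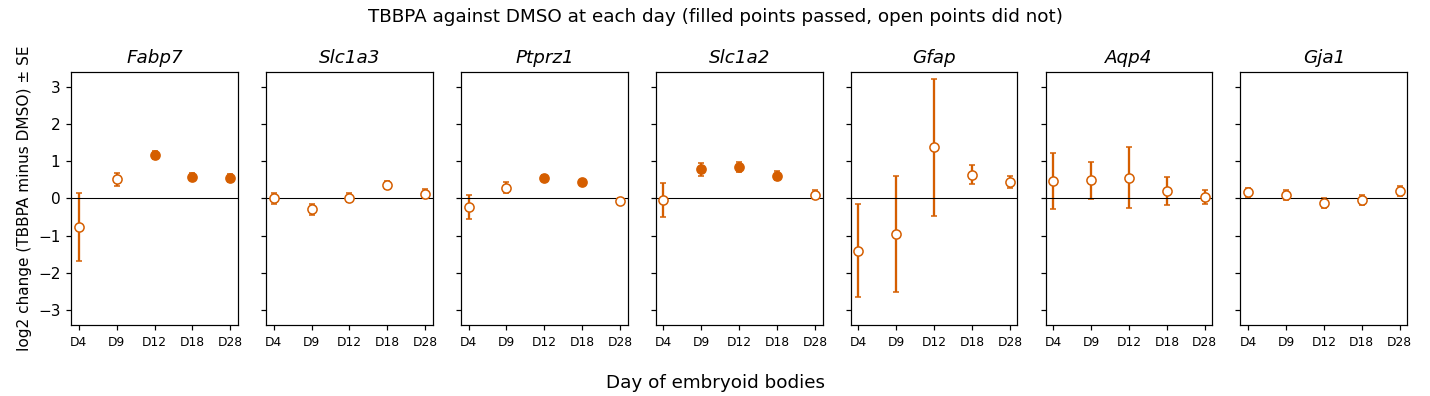
Log2 change of TBBPA over DMSO at each day for the 7 tested genes, with SE bars, n = 2 libraries in each group (10 nM and 100 nM as 2 samples); filled points passed the edgeR test. Fabp7 peaks at 1.17 at D12, and the wide bars of Gfap up to D12 belong to levels under 1 CPM.

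A fit with the day as a factor gave 1 TBBPA effect common to the 5 days, called the mean over days. Days with more counts weigh more in it, so it is no plain average. In it 4 of the 7 tested members were higher with TBBPA, where 11.7% of all genes were called higher and 10.4% lower. The common log2 change was 0.73 ± 0.09 for Fabp7 (edgeR adjusted p = 4.85e-05) and 0.54 ± 0.09 for Slc1a2 (0.000531). It was 0.46 ± 0.12 for Gfap (0.0119) and 0.26 ± 0.07 for Ptprz1 (0.0111). Slc1a3 (0.07), Aqp4 (0.12) and Gja1 (0.05) did not pass. By day the Gfap changes were -1.41 at D4, -0.95 at D9, 1.37 at D12, 0.64 at D18 and 0.45 at D28, with few counts up to D12. The Gfap mean did not pass without the D28 100 nM library (0.23, edgeR adjusted p = 0.246) or under DESeq2 (0.16, 0.726). It was 0.04 with limma on log2(FPKM + 0.1) (adjusted p = 0.885). The size of the TBBPA effect differed between days for 3 members, beside 10.4% of all genes. Between 100 nM and 10 nM, 0 members and 0 genes were called (1025 genes at an unadjusted p under 0.05, and 7 genes called by DESeq2). The 95% interval of the log2 difference was -0.25 to 0.27 for Fabp7, -0.36 to 0.02 for Slc1a3, -0.28 to 0.16 for Ptprz1, -0.24 to 0.32 for Slc1a2, -0.09 to 0.13 for Gja1, -0.79 to -0.05 for Gfap and -0.89 to -0.15 for Aqp4. Each interval is for 1 gene, without adjustment for the number of genes tested. The intervals of Gfap and Aqp4 lie below 0, but their edgeR adjusted p was 0.73 and 0.552.

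Markers of other cells differed between TBBPA and DMSO embryoid bodies on the same days. Over all genes, 11.9% were called higher and 9.19% lower at D12, 5.96% and 4.56% at D18, and 3.65% and 3.44% at D28. Of 10 neuronal genes, 9 rose at D12 and 10 at D18, and their summed level was 739 to 792 CPM with TBBPA against 384 to 402 CPM in DMSO at D12, and 1400 to 1520 CPM against 921 to 948 CPM at D18. At D28, 2 of the 10 rose, with sums of 195 to 212 CPM against 169 to 178 CPM. Of 7 fibroblast genes, 4 fell at D12, 7 at D18 and 4 at D28, and their sums at D18 were 2540 to 3820 CPM with TBBPA against 5470 to 5790 CPM in DMSO. None of the fibroblast or neuronal genes was at 0 in these groups. The part of these markers in the changes of Fabp7, Slc1a2 and Ptprz1 was not tested.

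Radial glia and astrocyte genes outside the set were also measured with TBBPA. Of 13 radial glia genes 8 rose and 2 fell at D12, and those that rose included Nes, a filament of neural stem cells (0.67 ± 0.08, edgeR adjusted p = 2.22e-06), and Pax6 (0.82 ± 0.13, 7.74e-05). Those that fell were Hopx (-0.37 ± 0.12, 0.0299) and Tnc, a matrix protein of radial glia (-0.38 ± 0.12, 0.0316). Of the same list 3 rose and 2 fell at D18, when Hopx rose (0.60 ± 0.10, 5e-04) and Tnc fell (-0.55 ± 0.11, 0.0036), and 1 rose and 1 fell at D28. Of 21 astrocyte genes 2 rose and 3 fell at D12, where 11.9% of all genes were called higher and 9.19% lower. Sparcl1 was among those that rose (0.36 ± 0.09, 0.00851). Those that fell were Clu (-0.57 ± 0.09, 6.34e-05), Apoe (-0.73 ± 0.15, 0.00357) and Glul (-0.27 ± 0.07, 0.00633), all of which other cell types also express. At D18 2 astrocyte genes rose, Mlc1 among them (0.93 ± 0.25, 0.0256), and 0 fell, beside 5.96% of all genes higher and 4.56% lower. Of 12 gliogenic regulators 2 rose and 3 fell at D12, 2 rose and 1 fell at D18, and 0 passed the edgeR test at D28, where 1 had an unadjusted p under 0.05 (Nfib, -0.24 ± 0.10, unadjusted p = 0.0208). Il6st, a receptor subunit of the cytokines that drive Gfap, fell at D12 (-0.30 ± 0.09, 0.0175) and D18 (-0.28 ± 0.09, 0.0341), and at D12 Nfia (0.03), Nfib (0.11) and Nfix (0.37) did not pass. The astrocyte list summed to 1450 to 1580 CPM at D12 with TBBPA, against 1980 to 2060 CPM in DMSO, with a median log2 change of -0.11. Most of the difference in that sum lay in Apoe, which averaged 539 CPM with TBBPA, against 892 CPM in DMSO. Glul averaged 326 CPM with TBBPA, against 394 CPM in DMSO. At D28 1 of the 21 astrocyte genes rose and 0 fell, beside 3.65% of all genes higher and 3.44% lower. It was Glul, the glutamine synthetase (0.35 ± 0.07, 0.00316). The list's sum at D28 was 4560 to 4700 CPM with TBBPA against 4000 to 4020 CPM in DMSO. Within it, Apoe averaged 961 CPM with TBBPA, against 751 CPM in DMSO (edgeR adjusted p = 0.191). Clu averaged 894 CPM, against 782 CPM (0.168), and neither passed.

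Across the 22 libraries, the members differed in how closely they followed each other. Pearson correlations of log2 CPM, given as a description since the libraries share days, were 0.95 between Fabp7 and Ptprz1, 0.95 between Fabp7 and Slc1a2, and 0.91 between Gfap and Aqp4, against 0.29 between Gfap and Gja1. The genes of the whole table most like Fabp7 were Chgb (0.991), Podxl2 (0.989) and Lrrc4b (0.984). Those most like Gfap were Hr (0.987), Mt3 (0.978) and Sfxn5 (0.975), and those most like Aqp4 were Slc12a9 (0.962), Cst3 (0.959) and Dbndd2 (0.956). Slc1a2 was most like Rgma (0.993), Olfm2 (0.991) and Amer2 (0.99), and Ptprz1 most like Pcdhga2 (0.989), Adcy5 (0.988) and Nfia (0.986). For Gja1 these were Endod1 (0.98), Cxcl12 (0.977) and 6430573F11Rik (0.974).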

How the data were processed

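One deposited table per library was analysed. Each table holds the authors' expected counts, an estimate of reads for every gene, per the file headers. FPKM was deposited by the authors beside each count, per the file headers, together with a length that differs between libraries for genes with several transcripts. HISAT, Bowtie2 and GRCm38.p5 are named in the submitters' processing notes, and what counted the reads is not stated there. Members were matched by symbol and gene ID.

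After rounding, the counts entered edgeR 4.0.16 under R 4.3.3 (TMM, filterByExpr with minimum count 10 and minimum total count 15, robust quasi-likelihood F tests), with Benjamini-Hochberg adjustment over all genes tested and a threshold of 0.05. The control steps used the 12 control libraries (6 residual degrees of freedom), TBBPA by day and its difference between days all 22 (11), and the mean over days the 20 embryoid body libraries (13). The floor was set at 3 counts per library, whatever its total count (18158583 to 18998141). The floor and the interval of the Gfap count ratio cover counting error only, and those of the dose difference come from the edgeR fit and include the spread between libraries. Alternatives were DESeq2 1.42.0, other scalings and filters, limma 3.58.1 on log2(FPKM + 1) and log2(FPKM + 0.1), summed DMSO pairs, single doses, a replicate block and leaving out each library. Strand was not stated, so reads of overlapping genes cannot be told apart.

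The members, the related gene lists and the tests were chosen with earlier results of these data known. The rule for named genes holds the 8 members in each comparison, and at days where no member was called the text gives counts. From each related list the 4 tested genes of smallest p at D28 (TBBPA against DMSO) and at D18 against D12 could be named, and for likeness the 3 genes with the highest Pearson correlation among those with a mean log2 CPM of at least 2 (prior count 2); the likeness of Slc1a3 is not reported here. Promoter windows come from RefSeq with coordinates of GRCm38.p6, 7 of the 8 members matched, and motifs were searched as exact letters on both strands.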

Additional observations from a re-analysis of the deposited data

Results flagged for a closer look

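The TBBPA effect differed between days for 3 of the 7 tested members, in the edgeR F test of the 4 differences between the 5 days. Over all genes, 10.4% were called in that test. For Ptprz1 the adjusted p was 0.00541, with log2 changes of -0.23 at D4, 0.29 at D9, 0.55 at D12, 0.43 at D18 and -0.07 at D28. For Fabp7 it was 0.0122, with -0.77 at D4, 0.51 at D9, 1.17 at D12, 0.58 at D18 and 0.55 at D28, and it did not pass without either D12 DMSO library (0.0778 and 0.0645) or without the D12 100 nM library (0.0592). For Slc1a2 it was 0.0409, with -0.05 at D4, 0.78 at D9, 0.84 at D12, 0.61 at D18 and 0.10 at D28, and it did not pass in 16 of 28 alternatives. In each of these 3 genes the lowest change was at D4 and the highest at D12. The D4 value of Fabp7 rests on 1 and 3 counts with TBBPA, against 4 and 3 in DMSO.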

How the results depend on the processing

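Over 91 results of single members and 1584 alternative values, 1502 kept their side of the threshold, 56 no longer passed, 26 newly passed and 0 called values reversed. A further 63 values that did not pass changed sign. The larger changes in the counts of members called were as follows. Smaller ones are left out, such as the loss of the Ptprz1 call for TBBPA at D12 with limma on log2(FPKM + 0.1). With limma on log2(FPKM + 1), 2 were called at D4 against ES cells (4 in the reported fit), 0 for TBBPA at D9 (1) and 2 for the mean over days (4). With limma on log2(FPKM + 0.1), 0 were called for TBBPA at D9, D18, D28 and between days, and 1 for the mean. With the 10 nM library alone, 0 were called at D9, 5 at D18 and 2 at D28. With only the libraries compared, 2 were called at D28. With the DMSO pair of a day added up to 1 sample, 0 were called at D9, 1 at D18, 0 at D28, 0 between days and 2 for the mean. All-gene counts under that setting were 0 at D4 (75 in the reported fit, 696 unadjusted), 0 at D9 (383), 781 at D12 (3452), 172 at D18 (1723), 6 at D28 (1162), 21 between days (1708) and 1239 for the mean (3544). With only the libraries compared, all-gene counts were 8056 at D12 against D9 (5361), and for TBBPA 663 at D4, 576 at D9 and 5223 at D12. With the 10 nM library alone they were 4 at D4, 211 at D9, 1874 at D12, 940 at D18 and 431 at D28. Limma on log2(FPKM + 0.1) gave 142 at D4, 193 at D9, 1043 at D18 and 639 at D28, and DESeq2 gave 160 at D4. The cause of these changes was not tested. The spread behind the reported TBBPA calls rests on DMSO pairs that may be technical and on single libraries per dose.

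Leaving out each library in turn, the members called were 4 to 4 at D4 against ES cells, 4 to 5 at D9, 4 to 6 at D12, 6 to 6 at D18 and 4 to 4 at D28. For TBBPA they were 0 to 0 at D4, 0 to 1 at D9, 3 to 3 at D12, 2 to 5 at D18, 0 to 1 at D28, 1 to 3 between days, 3 to 4 for the mean and 0 to 0 for 100 nM against 10 nM. Same-numbered control libraries did not deviate together (correlation -0.04 to 0.06 over 15 pairs of groups), and with the replicate block the members called were 4, 4, 5, 6 and 4 over the 5 control steps, as without it. Depth left S100b untested, and with no filter its lowest adjusted p was 0.383.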

Other observations

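The length that the authors list for Ptprz1, a gene with 8 listed transcripts, differed between libraries. It was 6449 to 8068 bases in ES cells and, in DMSO libraries, 6371 to 8115 at D4, 6258 to 6373 at D9, 7309 to 7598 at D12, 7888 to 7943 at D18 and 6967 to 7043 at D28. With TBBPA it was 6047 to 6535 bases at D4 and 6328 to 6669 at D9. At D12 it was 7831 to 8084 bases with TBBPA, against 7309 to 7598 in DMSO, while at D18 (7825 to 7960) and D28 (6782 to 7113) the TBBPA libraries overlapped the DMSO pair. FPKM of Ptprz1 divides by a length that differs between libraries, and CPM does not. No source used here says how the length was derived. Among members with 1 listed transcript, such as Fabp7 with 762 bases and Gja1 with 3105 bases, it was the same in every library that listed them.

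Olig2, a transcription factor of the oligodendrocyte and motor neuron lineages, was higher with TBBPA at D12 (log2 change 0.73 ± 0.17, edgeR adjusted p = 0.00557), D18 (0.62 ± 0.18, 0.0284) and D28 (0.85 ± 0.23, 0.0295). Of 10 tested oligodendrocyte lineage genes 2 rose and 2 fell at D12, beside 11.9% of all genes higher and 9.19% lower. Those that fell were Myrf (-0.65 ± 0.14, edgeR adjusted p = 0.00356) and Pdgfra (-0.36 ± 0.08, 0.00363). At D18 2 rose, Olig2 and Sox10 (1.55 ± 0.36, 0.0065), and 1 fell, Cspg4 (-0.97 ± 0.21, 0.00422). Over all genes 5.96% were called higher and 4.56% lower at D18. At D28 2 rose and 0 fell, beside 3.65% of all genes higher and 3.44% lower. The list's sum at D28 was 474 to 537 CPM with TBBPA, against 416 to 424 CPM in DMSO, and most of it was Pdgfra, which mesenchymal cells also express and which rose (0.36 ± 0.07, adjusted p = 0.00413), with a mean of 371 CPM with TBBPA, against 288 CPM in DMSO.

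Of 7 cardiac muscle genes 4 fell and 0 rose at D18 with TBBPA, beside 4.56% of all genes lower and 5.96% higher. Their sum was 93.9 to 110 CPM, against 165 to 175 CPM in DMSO. Heart muscle also uses Gja1, which was 186 and 173 CPM with 10 nM and 100 nM TBBPA, against 180 and 192 CPM in DMSO. Which cells of the aggregates held Gja1 was not tested.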
